A study of Mus musculus with 4 samples.

Results

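Condensin and the SMC5/6 complex were followed through the transcripts of 10 subunit genes in marrow progenitors with and without Asxl1. The genes were taken by symbol, Smc2, Smc4, Ncapd2, Ncapg, Ncaph, Ncapd3, Ncapg2, Ncaph2, Smc5 and Smc6, and each was found in 1 of the 17956 single-locus rows of the deposited table. Transcripts were measured by RNA sequencing of Lin-Kit+ bone-marrow cells, a fraction depleted of lineage-marked mature cells and positive for the receptor Kit, in which blood stem cells and progenitors are found. The 4 libraries were 2 from Asxl1-/- mice (KO) and 2 from wild-type mice (WT), all on the C57BL/6 strain, with 2000000 cells per library. No treatment, age, promoter or Cre driver is stated for either genotype, and no label says that replicates came from separate animals. By their sex-linked transcripts, given below, the 2 libraries of each genotype differed in sex and so came from different animals. P-values measure the spread between these libraries, which includes any difference between the sexes. ASXL1 is a chromatin regulator, and the series relates its loss to cohesin and to chromatid separation, which is the setting for asking about the other SMC complexes.

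SMC complexes are rings built from a pair of long coiled-coil ATPases, the SMC proteins, closed by a kleisin subunit. Condensin I and condensin II share the ATPases SMC2 and SMC4 and differ in the kleisin and in the HEAT-repeat subunits that bind it: NCAPH, NCAPD2 and NCAPG in condensin I, and NCAPH2, NCAPD3 and NCAPG2 in condensin II. Condensin II is nuclear through interphase and begins to compact chromosomes in prophase, whereas condensin I reaches the chromosomes after the nuclear envelope breaks down. SMC5/6 is the third eukaryotic complex of this kind, with roles in homologous recombination, replication fork stability and the silencing of extrachromosomal DNA.

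Genes for condensin subunits belong to the cell-cycle programme, in which CHR elements and CCAAT boxes near the start site and E2F sites take part. The promoters of 4 genes are shown here because the condensin II genes Ncapg2 and Ncapd3 had the largest fold changes of the set and Ncapg and Ncapd2 encode their condensin I counterparts. Each runs from 250 bases before to 50 bases after the start site, 5′ to 3′ on the strand of the gene, from RefSeq on GRCm38.p6. Capitals mark matches on either strand to TTTGAA or TTCGAA (CHR), CCAAT, and TTCCCGC (E2F). The windows were chr12:116405186-116405485 on the plus strand for Ncapg2, chr5:45669675-45669974 on the plus strand for Ncapg, the upstream of both listed start sites at chr9:27029915-27030214 on the plus strand for Ncapd3, and chr6:125191537-125191836 on the minus strand for Ncapd2.
Ncapg2: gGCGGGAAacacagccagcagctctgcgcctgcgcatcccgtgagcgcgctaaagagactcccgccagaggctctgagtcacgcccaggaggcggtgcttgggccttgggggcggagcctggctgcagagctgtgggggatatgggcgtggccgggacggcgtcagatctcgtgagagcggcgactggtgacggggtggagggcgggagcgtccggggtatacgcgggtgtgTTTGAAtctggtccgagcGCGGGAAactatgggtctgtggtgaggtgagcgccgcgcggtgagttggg
Ncapg: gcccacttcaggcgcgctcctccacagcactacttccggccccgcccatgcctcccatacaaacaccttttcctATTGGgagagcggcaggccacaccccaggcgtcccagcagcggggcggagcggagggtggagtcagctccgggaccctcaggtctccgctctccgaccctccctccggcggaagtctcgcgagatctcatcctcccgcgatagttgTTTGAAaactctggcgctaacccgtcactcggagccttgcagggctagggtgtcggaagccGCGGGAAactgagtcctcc
Ncapd3: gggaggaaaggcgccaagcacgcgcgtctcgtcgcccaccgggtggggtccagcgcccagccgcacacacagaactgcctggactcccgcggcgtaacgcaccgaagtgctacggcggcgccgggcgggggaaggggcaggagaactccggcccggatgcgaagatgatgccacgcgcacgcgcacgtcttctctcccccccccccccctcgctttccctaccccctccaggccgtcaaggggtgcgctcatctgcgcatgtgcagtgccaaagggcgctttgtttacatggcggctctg
Ncapd2: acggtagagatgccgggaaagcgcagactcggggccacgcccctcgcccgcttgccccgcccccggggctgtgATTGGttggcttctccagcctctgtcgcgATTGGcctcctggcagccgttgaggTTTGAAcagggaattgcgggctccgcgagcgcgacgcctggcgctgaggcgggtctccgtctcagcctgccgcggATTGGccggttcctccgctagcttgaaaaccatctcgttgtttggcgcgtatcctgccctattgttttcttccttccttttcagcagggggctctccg

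The Ncapg2 window held TTTGAA 18 bases before the start and TTCCCGC at the start and 249 bases before it, each distance counted to the first base of the match. Ncapg had TTTGAA 30 bases before the start, CCAAT 176 bases before it and TTCCCGC 31 bases after it. Ncapd2 had TTTGAA 123 bases before the start and CCAAT at 48, 148 and 177 bases before it. None of these letters occurred in the upstream Ncapd3 window, but the window of the other Ncapd3 start site, not shown, held TTTGAA 249 bases before that start. The table held windows for 9 of the 10 genes, all but Smc4. A CHR match of either spelling was in 6 of the 9 (the upstream window for Ncapd3), against 19.2% of 32851 windows of the same length, CCAAT was in 3 against 37.4%, and TTCCCGC was in 2 against 4.6%. These are letter matches only, and no binding was measured.

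Some rows of the deposited table cover more than 1 gene name. Ncapg was counted together with its neighbour Lcorl, and Ncaph2 together with the thymidine phosphorylase gene Tymp and the clone AK012142, so those 2 rows hold the reads of more than 1 gene. Ncapg2 was merged with Mtb, which RefSeq lists as its synonym, Smc4 with SMC4, and Ncaph with the clone name mKIAA0074. In mm9 coordinates of the table Ncapg2 lay at chr12:117643874-117702004, Ncapd3 at chr9:26837759-26902900, Smc5 at chr19:23283221-23348367 and Smc6 at chr12:11272691-11326591. All 10 rows passed the filter on low values, a normalised read count of at least 10 in at least 2 libraries, as did 13764 rows in all. Between 4297 and 52876 reads were recovered per gene and library.

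Library facts that bear on every value were as follows. KO libraries held 83586916 and 76688583 reads and WT libraries 46597871 and 49764454. Asxl1 had 146 and 135 normalised reads in KO, against 9742 and 9472 in WT. Xist was high in replicate 1 of both genotypes (89290 in KO and 103006 in WT) and low in replicate 2 (147 in KO and 2123 in WT). Y-linked Ddx3y showed the opposite, at 3.79 in KO and 5.18 in WT in replicate 1. In replicate 2 it had 7947 in KO and 7385 in WT. Replicate 1 was thus of female type and replicate 2 of male type in both genotypes. Values within each replicate number are therefore given beside the pooled ones. Markers of the Lin-Kit+ fraction and of mature blood cells also differed between genotypes, with the values given at the end.

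Loss of Asxl1 left the transcripts of these complexes close to their WT level. The condensin II gene Ncapg2 rose by 15.8% and was the 1 gene of 10 called higher by limma at an adjusted p of 0.05, where 11.9% of all tested loci were called higher. None was called lower, where the share of all loci was 8.97%. At an unadjusted p under 0.05, 2 of the 10 were higher and 0 lower, against 19.5% and 18.3% of all loci. On recovered reads edgeR called 2 higher, Ncapg2 and Ncapd3, and 0 lower, against 11.8% and 8.86% of all loci, and DESeq2 called the same 2 and 0 lower, against 14.9% and 11.7% of the loci to which it gave an adjusted p. The median log2 fold change of KO over WT was 0.06 over the 10 genes and -0.01 over all 13764 loci, and the median size without sign was 0.07 against 0.21. On the deposited scale fold changes were positive in 9 of the 10, in both replicate pairs. The share of all loci with a positive sign was not computed. With upper-quartile scaling, which moved all loci by -0.05, the signs of Smc4, Ncapd2 and Ncaph turned. With reads scaled to the library total (CPM), Smc4, Ncapd2, Ncaph and Ncaph2 were, like Smc6, lower in KO than in WT in both replicate pairs. The count of positive signs thus depends on the scaling.

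**Figure D1:**
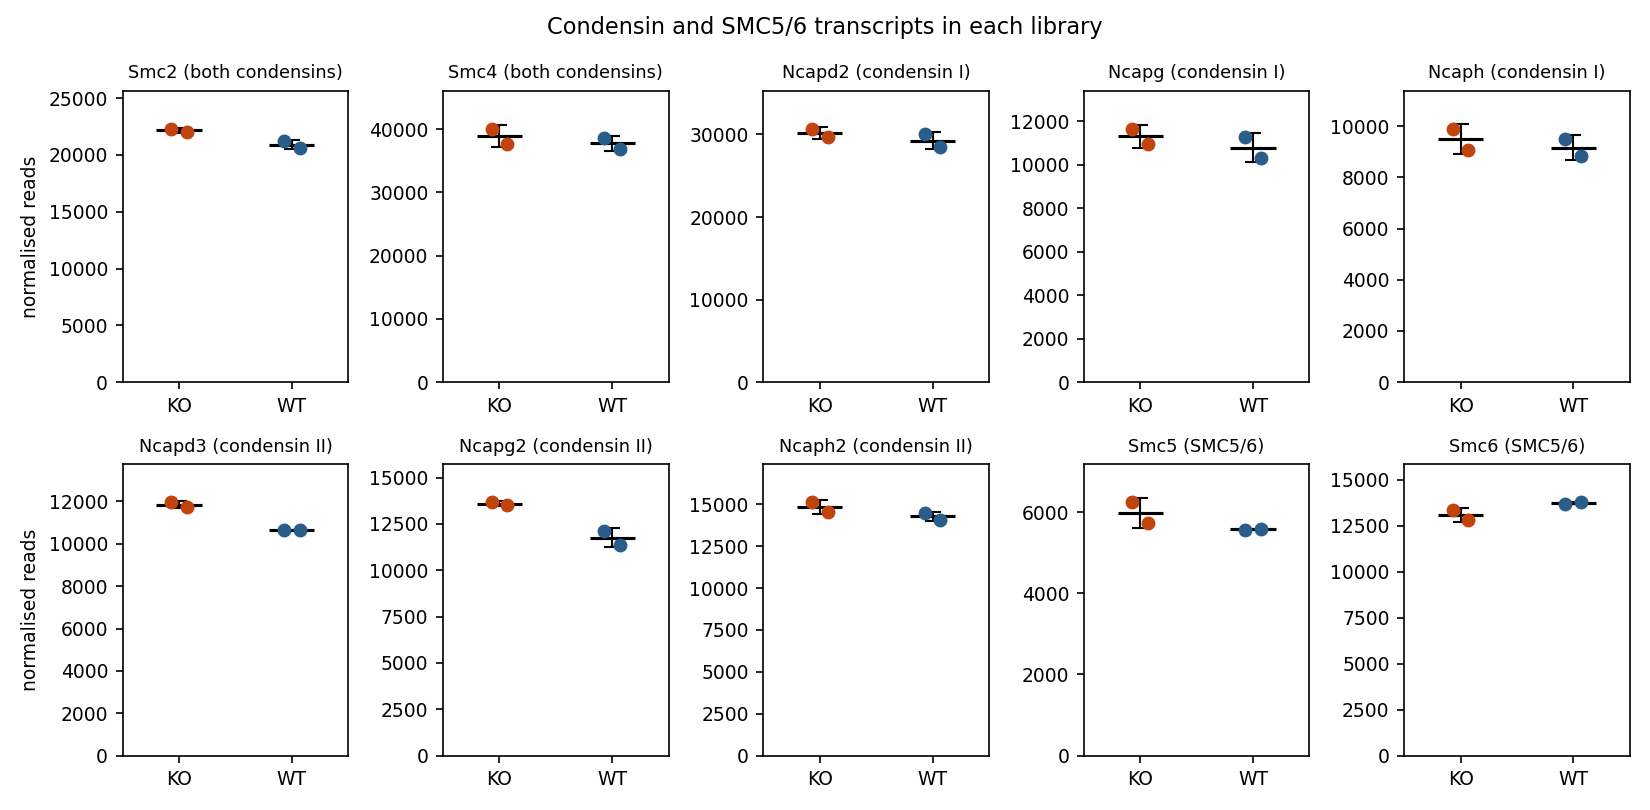
Normalised read counts of each subunit gene in the KO libraries (left) and the WT libraries (right), with points for libraries and bars for the mean and SD (n = 2 each), on axes that start at 0. Ncapg2, Ncapd3, Smc5, Smc2 and Ncaph2 are higher in both KO libraries than in both WT libraries, and Smc6 is lower in both. Smc4, Ncapd2, Ncapg and Ncaph overlap.

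The ATPases that both condensins share were abundant and differed little. Smc2 had 22322 and 21993 normalised reads in KO and 21194 and 20621 in WT, with a log2 fold change of 0.08 ± 0.04 (SE, limma adjusted p = 0.214). Both KO libraries lay above both WT libraries on the deposited scale. In CPM, where reads are scaled to the total of the library, the genotypes overlapped, at 352 and 348 in KO and 351 and 340 in WT. Smc4, the partner of SMC2 in the ring, had 40076 and 37667 normalised reads in KO and 38612 and 36880 in WT (log2 fold change 0.04 ± 0.05, limma adjusted p = 0.592). Here the libraries of the genotypes overlapped. In log2 terms the ratio of Smc2 to Smc4 within a library was -0.84 and -0.78 in KO and -0.87 and -0.84 in WT, again overlapping.

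Condensin I genes showed overlapping libraries throughout. Ncapd2, whose HEAT-repeat protein binds the kleisin NCAPH, had 30716 and 29666 normalised reads in KO and 29995 and 28511 in WT, a log2 fold change of 0.05 ± 0.05 (limma adjusted p = 0.528). Ncapg, the other HEAT-repeat gene of condensin I, had 11670 and 10944 in KO and 11265 and 10328 in WT in the row it shares with Lcorl (0.07 ± 0.06, limma adjusted p = 0.476). Ncaph, the kleisin gene, had 9906 and 9072 in KO and 9510 and 8819 in WT (0.05 ± 0.07, limma adjusted p = 0.621). For all 3, replicate 1 was above replicate 2 in both genotypes, and the difference between replicates exceeded the difference between genotypes.

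The condensin II genes Ncapg2 and Ncapd3 held the largest fold changes of the set on the deposited scale, and Ncaph2, the third, did not share them. With upper-quartile scaling Smc6 (log2 fold change -0.13) exceeded Ncapd3 (0.10) in size. Ncapg2, the HEAT-repeat counterpart of Ncapg, had 13677 and 13506 normalised reads in KO and 12103 and 11386 in WT. Both KO libraries lay above both WT libraries, with means of 13592 ± 121 in KO and 11745 ± 507 in WT (SD, n = 2 each) and a log2 fold change of 0.21 ± 0.05 (SE, limma adjusted p = 0.0345, 95% interval 0.09 to 0.33). It was 0.18 within the first replicate pair and 0.25 within the second. The call was lost when either WT library was left out, fits in which the spread comes from the KO pair alone: the adjusted p was 0.103 without WT replicate 1 and 0.216 without WT replicate 2, at log2 fold changes of 0.26 and 0.17, and 0.0671 with upper-quartile scaling, where the log2 fold change was 0.16. Over all alternatives the adjusted p ran from 0.00494 to 0.216, and all gave a higher value in KO.

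Ncapd3, the counterpart of Ncapd2, had 11972 and 11737 normalised reads in KO and 10645 and 10650 in WT. Its KO libraries were 11.3% above WT by the fitted fold change, the WT libraries were nearly equal, and the genotypes did not overlap. The log2 fold change was 0.15 ± 0.04 (SE, limma adjusted p = 0.0576), 0.17 for replicate 1 and 0.14 for replicate 2. The edgeR quasi-likelihood test on recovered reads called it (adjusted p = 0.0425), as did DESeq2 (adjusted p = 0.0288). Ncaph2, the kleisin gene of condensin II, had 15129 and 14563 in KO and 14477 and 14082 in WT in the row it shares with Tymp (0.06 ± 0.05, limma adjusted p = 0.426). Its KO libraries were above the WT libraries by a small margin, and in CPM they overlapped. Separation by itself is common here, since on the deposited scale both KO libraries were above both WT libraries in 5 of the 10 genes and in 32.5% of all loci. In CPM the KO libraries were above the WT libraries in 2 of the 10, Ncapg2 and Ncapd3, and below them in 1, Smc6, while 7 overlapped. The share of all loci separated in CPM was not computed, so these counts cannot be called few or many.

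The SMC5/6 ATPase genes had fold changes of opposite sign, and neither was called. Smc5 had 6248 and 5723 normalised reads in KO and 5565 and 5590 in WT (log2 fold change 0.10 ± 0.06, limma adjusted p = 0.283). In CPM its libraries overlapped. KO replicate 1 supplied most of the difference, with 0.17 between the replicate 1 libraries and 0.03 between the replicate 2 libraries. Smc6 had 13326 and 12792 in KO and 13678 and 13781 in WT, the 1 gene of the 10 with a negative fold change (-0.07 ± 0.05, limma adjusted p = 0.303). Both KO libraries lay below both WT libraries, as they did in 33.6% of all loci. For the 9 genes not called, the unadjusted 95% intervals of the log2 fold change ran from -0.19 to 0.26, so differences within those bounds remain possible.

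**Figure D2:**
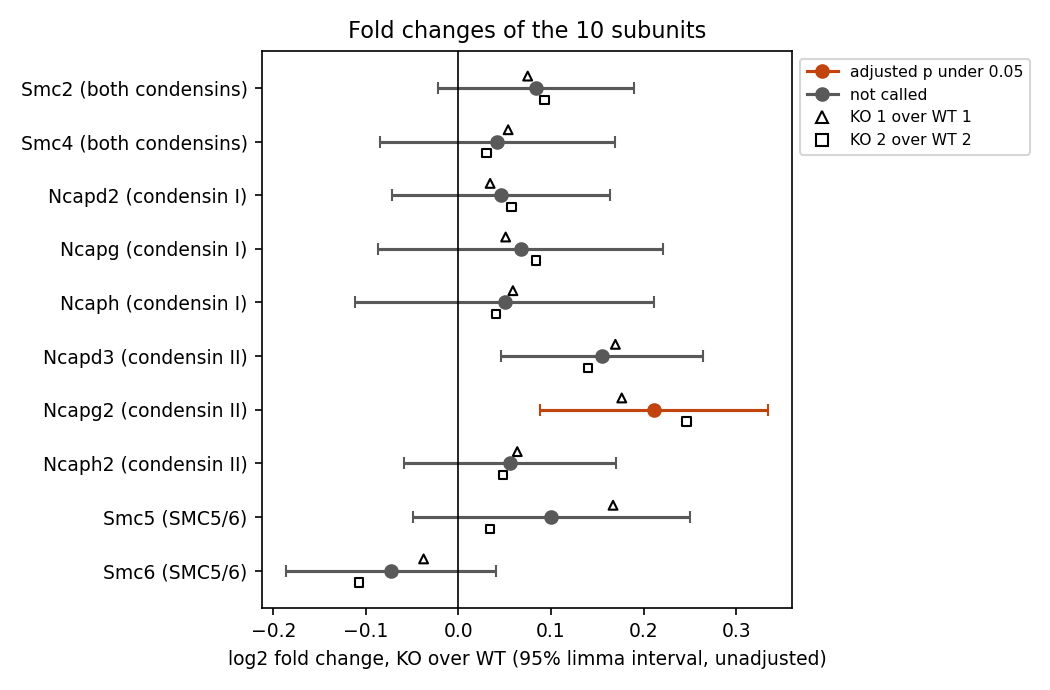
Log2 fold change of KO over WT for each subunit gene, with its unadjusted 95% limma interval as a bar and the values of the 2 replicate pairs as open symbols. Ncapg2 at 0.21 is called, Ncapd3 at 0.15 is the next, and Smc6 at -0.07 lies on the other side of 0.

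Among all loci the subunits fell in the narrow, well-measured region of high counts. The median SE of the log2 fold change was 0.05 over the 10 genes and 0.10 over all loci. The fold change of Ncapg2, the largest of the set, was exceeded in size by 49.8% of all tested loci.

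**Figure D3:**
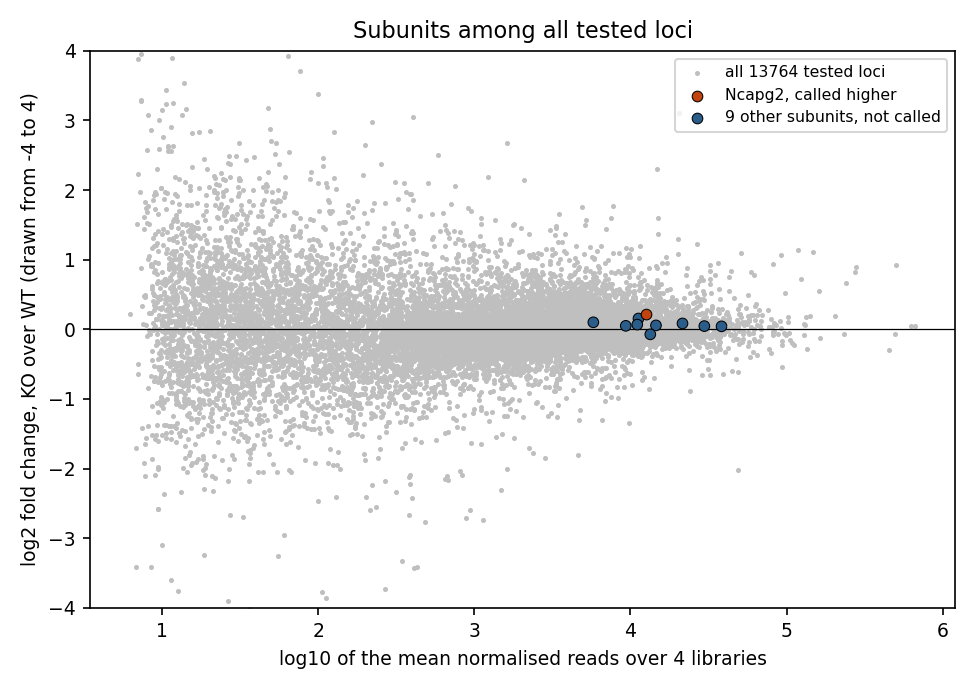
Log2 fold change of KO over WT (vertical, drawn from -4 to 4) against the log10 mean normalised read count over the 4 libraries, for all 13764 tested loci in grey and the 10 subunit genes as outlined points. The subunits lie near 0 at high counts, with Ncapg2 at 0.21 the highest and Smc6 at -0.07 the lowest.

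Ratios within a library do not depend on how libraries were scaled, and 6 of them were compared between genotypes. The log2 ratio of Ncapg to Ncapg2 was -0.23 and -0.30 in KO and -0.10 and -0.14 in WT, a difference of -0.14. That of Ncapd2 to Ncapd3 was 1.36 and 1.34 in KO and 1.49 and 1.42 in WT, a difference of -0.11. In both, KO libraries lay below WT libraries, so the condensin I transcript made up less of the pair in KO than in WT. The kleisin pair did not follow: Ncaph to Ncaph2 was -0.61 and -0.68 in KO and -0.61 and -0.68 in WT, with a difference of -0.01. With 3 subunits summed for each complex, the log2 ratio of condensin I to condensin II was 0.36 and 0.32 in KO and 0.45 and 0.40 in WT.

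Smc5 to Smc6 showed the widest separation of these ratios. Its log2 value was -1.09 and -1.16 in KO and -1.30 and -1.30 in WT, a difference of 0.17, which is 5.09 times the pooled SD between replicates, with 0.20 for replicate 1 and 0.14 for replicate 2. With 2 libraries against 2, an exact two-sided permutation test cannot go below p = 0.333. By this exact test the 4 separated ratios reached that value (0.5 after Benjamini-Hochberg adjustment over the 6) and the 2 overlapping ones gave p = 0.667, so by this test none of the 6 differences could pass 0.05, which is a limit of the test. The share of separated ratios among other gene pairs was not computed. Among single loci on the deposited scale, KO libraries lay above WT libraries in 32.5% and below them in 33.6%. The condensin sums hold the same genes as the condensin I to II pairs, so they add no separate measurement. Lcorl reads in the Ncapg row and Tymp reads in the Ncaph2 row enter their ratios.

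**Figure D4:**
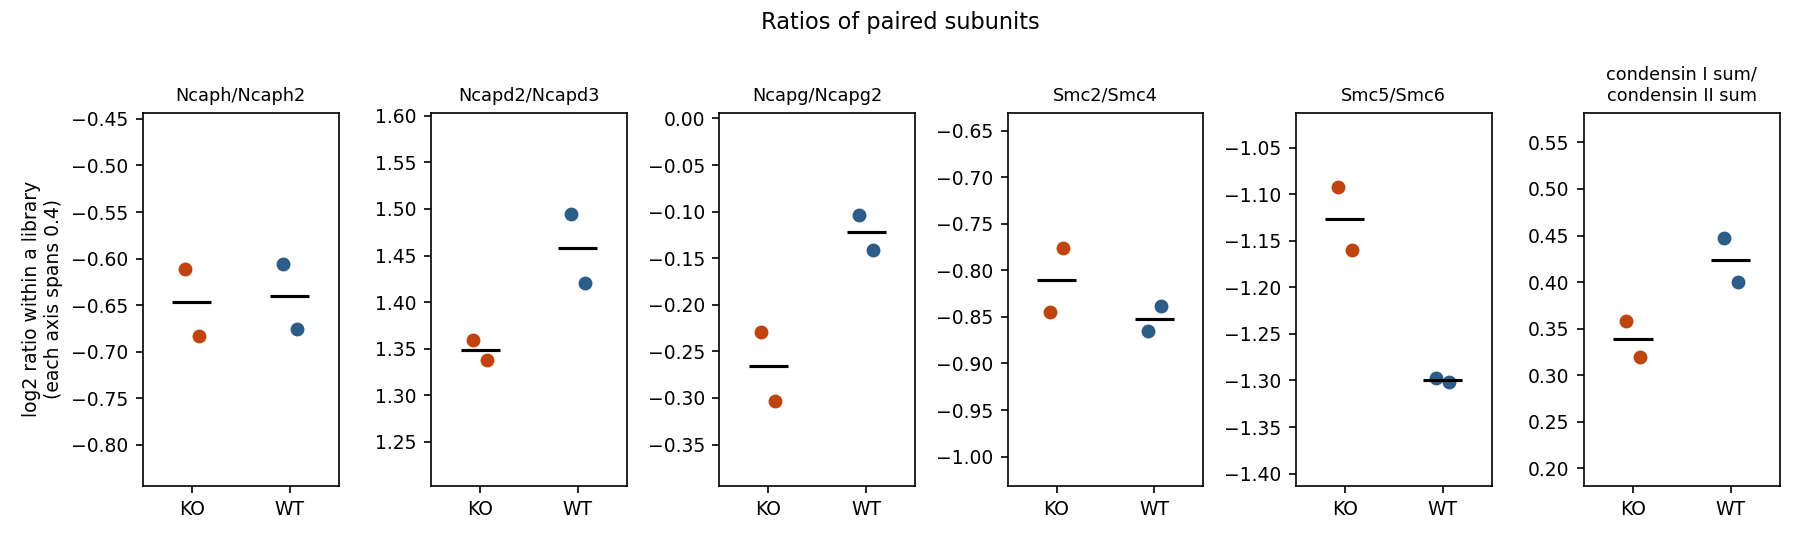
Log2 ratios of paired subunit genes within each library, KO libraries on the left and WT libraries on the right of each panel, with lines for the means (n = 2 each) and axes that each span 0.4. Ncapd2/Ncapd3, Ncapg/Ncapg2 and the condensin I to II sum are lower in both KO libraries, Smc5/Smc6 is higher in both, and the other 2 overlap.

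Levels were set side by side as CPM per kilobase of coding sequence, for the 8 genes not merged with another protein-coding gene. Reads over untranslated exons are included in these values, so long untranslated regions raise them. Smc4 had the highest level, 159 ± 6.85 in KO and 162 ± 5.89 in WT (SD, n = 2 each). Ncapd2 followed with 114 ± 2.72 in KO and 116 ± 4.62 in WT, then Smc2 with 97.9 ± 0.948 in KO and 96.7 ± 2.26 in WT. Ncaph ranged from 65.4 to 71.9 over the 4 libraries, Smc6 from 61.4 to 69.0 and Ncapg2 from 55.0 to 63.2, and these neighbours overlapped in that order. Ncapd3 ranged from 38.8 to 41.8. Smc5 was lowest, from 27.4 to 29.9, below its partner Smc6 in every library. The order depends in part on the length used. Per kilobase of all annotated exons, Smc4, Ncapd2, Smc2 and Ncaph kept that order and Smc5 stayed lowest, but Ncapd3 came above Ncapg2, and Smc6 came below both.

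The other components of SMC5/6 were read from a list. Of 7 genes for the non-SMC elements of SMC5/6 and for the SLF factors that bring the complex to damaged DNA, limma called 0 higher and 0 lower, with 1 higher and 0 lower at an unadjusted p under 0.05 and 0 by edgeR or DESeq2. Eid3, a kleisin-type element related to Nsmce4a, had 77.3 and 75.1 normalised reads in KO and 50.5 and 46.3 in WT (log2 fold change 0.64 ± 0.26, limma adjusted p = 0.13). Nsmce4a, the kleisin gene of the complex, had 8191 and 8347 in KO and 8692 and 8904 in WT (-0.09 ± 0.05, limma adjusted p = 0.224), so its KO libraries lay below WT, as those of Smc6 did. With upper-quartile scaling edgeR called it lower (log2 fold change -0.14, adjusted p = 0.0488). The list median was 0.02.

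Kinases, topoisomerases and other partners of condensin formed a list of 20 genes, of which limma called 0 in either direction. At an unadjusted p under 0.05, 2 were higher and 2 lower. Plk1, a mitotic kinase that in human cells phosphorylates condensin II, was counted with Dctn5 and had 11511 and 11277 normalised reads in KO and 13045 and 12502 in WT (log2 fold change -0.16 ± 0.05, limma adjusted p = 0.0584). The edgeR test called it lower (adjusted p = 0.0473), as did DESeq2 (adjusted p = 0.0361), and it was the 1 gene of the list that either tool called. Ccnb2, a B-type cyclin gene, had 9749 and 9055 in KO and 8512 and 8402 in WT (0.15 ± 0.06, limma adjusted p = 0.101). Top2a, Mki67 and Cdk1 were not called, and the list median was -0.03.

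Of 5 other SMC family genes, 0 were called by limma, edgeR or DESeq2, with 0 higher and 1 lower at an unadjusted p under 0.05. Smchd1, which acts in X inactivation, had 15113 and 15173 normalised reads in KO and 16414 and 16181 in WT (log2 fold change -0.11 ± 0.04, limma adjusted p = 0.129). Smc3, a cohesin ATPase gene, had 20225 and 19262 in KO and 18339 and 18387 in WT (0.10 ± 0.05, limma adjusted p = 0.158). In neither gene did the genotypes overlap on the deposited scale, where KO lay above WT in 32.5% of all loci and below it in 33.6%. These 2 genes were named for the lowest p of the list, in which 3 fold changes were positive and 2 negative.

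Of 22 genes of G2 and mitosis, 8 had positive and 14 negative fold changes. In that list limma called 0, with 0 higher and 1 lower at an unadjusted p under 0.05 and 0 by edgeR or DESeq2, and the median log2 fold change was -0.02. The spindle checkpoint gene Bub1b had 14667 and 13548 normalised reads in KO and 15507 and 15536 in WT (-0.14 ± 0.05, limma adjusted p = 0.118). Ect2, which acts in cytokinesis, had 7782 and 6761 in KO and 8532 and 7791 in WT (-0.17 ± 0.08, limma adjusted p = 0.198). Without KO replicate 1, the log2 fold changes of Bub1b, Cenpf, Ckap2l and Ect2 were -0.20, -0.27, -0.24 and -0.27. Without KO replicate 2, that of Kif11, a spindle motor gene, was 0.19. Cenpf, Ckap2l and Kif11 were chosen after their values were seen.

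Of 20 DNA replication genes limma called 0, with 0 higher and 2 lower at an unadjusted p under 0.05. Uhrf1, which guides maintenance DNA methylation, had 24433 and 25865 normalised reads in KO and 28065 and 28514 in WT (log2 fold change -0.17 ± 0.05, limma adjusted p = 0.0536), and the polymerase gene Pola1 had 9644 and 9187 in KO and 10430 and 10674 in WT (-0.16 ± 0.05, limma adjusted p = 0.0651). DESeq2 called both lower and edgeR called Pola1. The list median was -0.02.

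**Figure D5:**
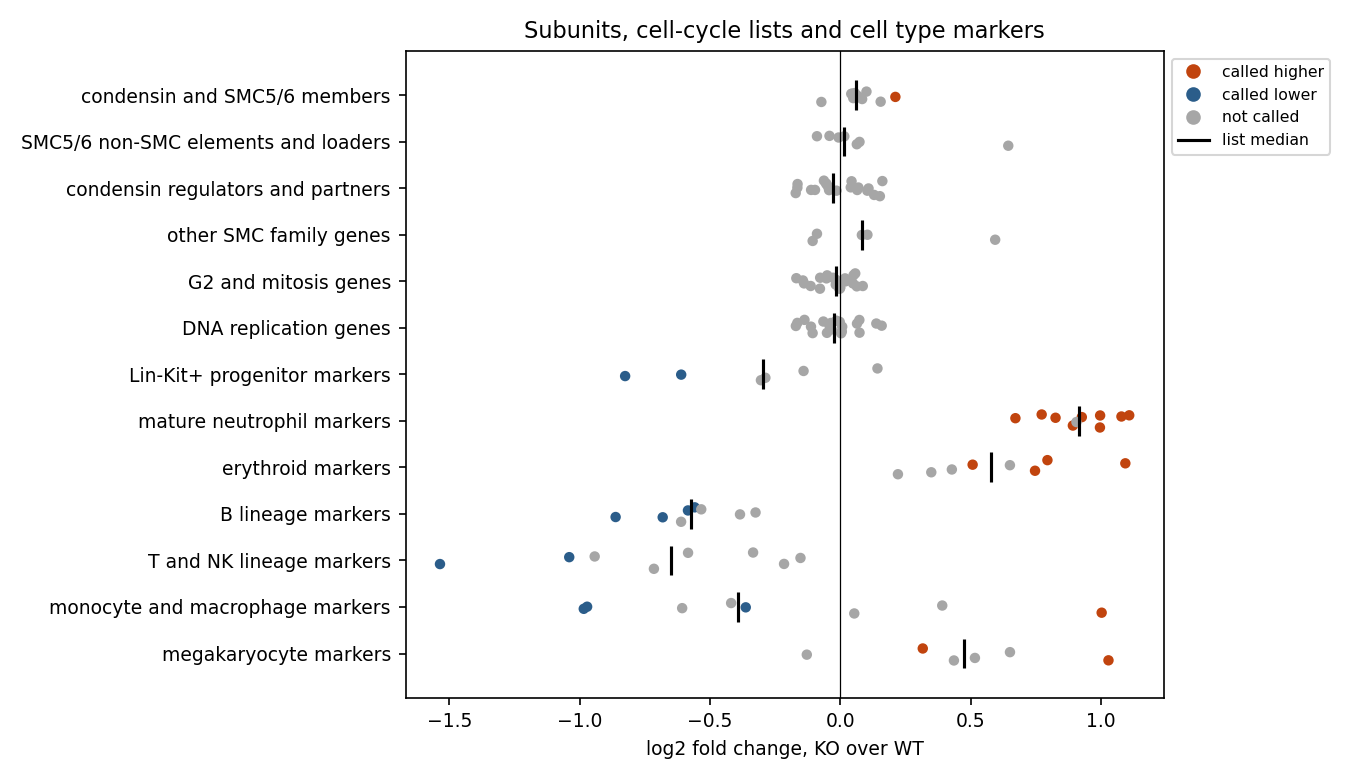
Log2 fold change of KO over WT for the genes of each list (points, coloured by the limma call) with the list median as a line. The subunits and the cell-cycle lists lie within a narrow band near 0 except for Eid3 and Smc1b, whereas neutrophil and erythroid markers lie to the right and B lineage markers to the left.

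Cell type markers differed far more than the subunits did. Of 10 tested mature neutrophil markers 9 were called higher and 0 lower, and their summed normalised reads were 2039030 and 1895690 in KO and 1016980 and 1130930 in WT. Of 8 erythroid markers 4 were called higher, with sums of 116922 and 132181 in KO and 65386 and 71125 in WT. B lineage markers summed to 78575 and 55589 in KO and 103179 and 99131 in WT, with 4 of 8 called lower. All 8 T and NK markers had negative fold changes, and 2 were called lower. Summed T and NK markers were 7031 and 5794 in KO and 8289 and 7382 in WT. Most of that sum was Nkg7, which was not called (6245 and 5241 in KO, 7061 and 6251 in WT). Among 6 progenitor markers 5 had a negative fold change, and 2 were called lower, Cd34 and Flt3. The 1 with a positive fold change was Kit (log2 fold change 0.14, not called). The progenitor markers summed to 518833 and 447359 in KO and 612446 and 563017 in WT. Most of that sum was Mpo, which was not called (441863 and 370120 in KO, 525289 and 474770 in WT). In the monocyte and macrophage list 1 of 8 was called higher and 3 were called lower. In the megakaryocyte list 2 of 6 were called higher. No marker with a row was at 0 in any library. The part of these shifts in the Ncapg2, Ncapd3 and Smc6 values was not tested, and in bulk RNA fewer cells of a type and less RNA per cell cannot be told apart.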

How the data were processed

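RNA-seq libraries of Lin-Kit+ marrow cells, 2 KO and 2 WT, were compared. STAR 2.3.1t and the mm9 build are named per the submitters' processing notes; for the counter, annotation, strand handling and scaling, the label is silent (not given in the sources used here). By its values, the deposited signal is a read count per locus multiplied by 1 factor per library, called normalised reads: dividing each library by its lowest nonzero value gave whole numbers for 100% of values (tolerance 0.001). A count of 0 allows 3 reads; such limits cover counting error only. Rows joining a pair of loci by a comma were left out; 11 of them name a subunit and held 0.0395% to 0.0404% as many reads as the subunit rows.

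Limma 3.58.1 (R 4.3.3) with a mean-variance trend was run on log2(value + 1), a scale that understates changes of low loci, with genotype as the only term, over the 13764 single-locus rows that reached a value of 10 in 2 or more libraries. P-values were adjusted by Benjamini-Hochberg over all of them. The edgeR 4.0.16 quasi-likelihood test, which called 1619 loci higher and 1220 lower, and DESeq2 1.42.0 used the recovered whole reads. Ratios were tested by exact permutation (SciPy 1.17.1). The limma and edgeR fits were tested on simulated data. Coding lengths are the longest coding sequence per gene in GENCODE vM21, in place of the protein lengths first planned.

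The genes and lists were chosen with earlier results of these data known. Text names all 10 subunits, Asxl1, and from each list at most 2 genes, the called ones that changed most or, failing any call, those of lowest p. Other genes named were chosen after their values were seen. Alternatives were other pseudocounts, filters, scalings and tests, a replicate block, and leaving out each library.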

Additional observations from a re-analysis of the deposited data

How the results depend on the processing

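With 2 libraries per genotype, the spread is estimated from little data, and without a library of 1 genotype it comes from the pair of the other, with the lone library assumed to vary alike. Across 140 alternative values of the 10 fold changes, 128 kept their direction and their side of the threshold. The count of subunits called higher was 2 with edgeR and TMM or RLE scaling and with DESeq2, 0 with upper-quartile scaling, and 0 to 1 when a library was left out; 0 were called lower throughout. Signs turned with upper-quartile scaling for Smc4 (-0.011), Ncaph (-0.0030) and Ncapd2 (-0.0078), without KO replicate 1 for Smc4 (-0.0026) and Ncaph (-0.014), and without WT replicate 2 for Ncaph (-0.0046), while the highest values with a library left out were 0.087 for Smc4 and 0.11 for Ncaph; apart from the shift that scaling adds to all loci, the cause was not tested. Calls over all loci ran from 603 to 1714 higher and from 266 to 1542 lower when a library was left out, lowest without WT replicate 1. Upper-quartile scaling gave 43.0% of calls higher, against 57.0% in limma.

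Lists with 0 calls gained some. Condensin partners had 1 lower with edgeR and TMM, with upper-quartile scaling and with DESeq2. Replication genes had 1 lower with the filter at 100, with edgeR and TMM and with the replicate block, 2 with DESeq2 and 3 with upper-quartile scaling. With upper-quartile scaling, 1 non-SMC element (Nsmce4a) and 1 other SMC gene (Smchd1) were lower. Leaving out a library gave 0 to 1 higher and 0 to 1 lower partners, 0 to 1 lower other SMC genes, 0 to 1 higher and 0 to 4 lower G2 and mitosis genes, and 0 to 1 higher and 0 to 1 lower replication genes. The ratio differences ran, with a library left out, from -0.042 to 0.030 for Ncaph to Ncaph2, from 0.0078 to 0.076 for Smc2 to Smc4, from -0.15 to -0.072 for Ncapd2 to Ncapd3, from -0.18 to -0.11 for Ncapg to Ncapg2, from 0.14 to 0.21 for Smc5 to Smc6, and from -0.11 to -0.061 for the condensin I to II sum.

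Same-numbered libraries deviated together with a correlation of 0.246 over tested loci. They shared the sex type given above, so the replicate block is also a block on sex. No label says that a number marks a batch as well, and the part of sex in that correlation was not tested. With the replicate block 1906 loci were called higher and 1533 lower, and Ncapg2 had an adjusted p of 0.0277 and Ncapd3 of 0.0634.

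With the union of all annotated exons as the length, a choice made after seeing the data, mean CPM per kilobase over the 4 libraries was 119 for Smc4, 76.6 for Ncapd2, 63.5 for Smc2, 35.0 for Ncaph, 23.0 for Ncapd3, 20.6 for Ncapg2, 17.3 for Smc6 and 13.8 for Smc5.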
